A study of Mus musculus with 13 samples.

Results

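The CTCF peaks of limbs carrying the HoxD allele del(8-13)rXII were set against those of wild-type limbs, over the whole genome and over chromosome 2, which holds the HoxD cluster. Every called interval on chromosomes 1 to 19, X and Y was taken, and intervals of both lists that overlapped by at least 1 bp were counted as the same site. This gave 36116 intervals in the del(8-13)rXII list and 43533 in the wild-type list, of 418205 intervals in the 9 CTCF and RAD21 lists of the series that were used. The 5 other CTCF lists come from wild-type distal and proximal forelimbs and from E12.5 limbs of 3 other alleles. These are del(8-13)d11lac, del(1-13)d9lac and del(attP-Rel5)d9lac. Below, a wild-type interval without a del(8-13)rXII interval is called missing and otherwise kept, and a del(8-13)rXII interval without a wild-type interval is called extra and otherwise shared.

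The mutant library came from whole forelimbs of 4 pooled B6CBAF1 embryos, from crosses of heterozygous parents that gave wild-type and homozygous mutant embryos. By its name the allele lacks Hoxd8 to Hoxd13, and the labels do not say what rXII stands for. CTCF was profiled in it by ChIPmentation, in which a Tn5 transposase adds the sequencing adapters to the chromatin on the beads, with 14 cycles of PCR. The wild-type library came from whole forelimbs and hindlimbs of B6CBAF1 embryos and was made by conventional ChIP-seq. Both are labelled E12.5 (the ChIPmentation protocol writes E12), were fixed for 10 minutes and were read as 50-base single ends with the same antibody. Each side is 1 library, so there is no replicate and no test, and genotype, tissue, assay and library cannot be told apart. Read depth is not in the files, and a missing site is one where no peak was called.

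CTCF is a DNA-binding protein with many zinc fingers. It recognises a long, oriented motif and holds up cohesin, the ring complex that extrudes chromatin loops. The sites where it does so mark many domain boundaries and loop anchors. The HoxD cluster is a row of homeobox genes that pattern the limb, next to Evx2, between the genes Lnpk and Mtx2, and a boundary between its regulatory landscapes lies within it.

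In del(8-13)rXII forelimbs no CTCF interval was called from Hoxd13 to Hoxd8, and intervals were kept on both sides of that stretch. Between the starts of Lnpk and Mtx2 (chr2:74579435-74825803, build mm10, as all coordinates here) there were 4 del(8-13)rXII intervals and 9 wild-type intervals. Of the 4 del(8-13)rXII intervals 1 was extra, where 13% of del(8-13)rXII intervals were extra in the genome and 11.6% on chromosome 2. Of the 9 wild-type intervals 6 were missing, where 29.7% of wild-type intervals were missing in the genome and 29.1% on chromosome 2. Strength alone, taken as the share kept in each decile of the wild-type list, would give 8.40 of the 9 kept. DNA that an allele lacks can give no peak. For sites within the deletion by name, these shares therefore say nothing on CTCF binding. The motifs found within 50 bp of these summits are shown because the results at HoxD turn on these sites. Capitals mark the 19-base match to the CTCF matrix, lower case its flanks, read 5′ to 3′ along the strand of the motif, which is named beside each site.
Evx2 UTR, kept, minus strand: cctgcTGCCGCTAGGGGGCGCCCCgggggg
Evx2 to Hoxd13, outer site, missing, minus strand: gaggaAAACAGATGGGGGCGCCAAatgaca
Hoxd13 to Hoxd12, missing, minus strand: caaacGCCCAGGAGATGGCGAGCGtgctcc
Hoxd11 exon, missing, plus strand: tctacAGCCACACGAGGGCGCGCTcatgtt
Hoxd10 coding exon, missing, minus strand: ttactGATCTCTAGGCGGCGCTCGcgggtg
Hoxd9 to Hoxd8, missing, plus strand: catttGGCCACTAGAGAGCGCTGTtgctcc
Hoxd3 and Hoxd4, kept, plus strand: gctttGTCCAGGAGGAGGCGCTGTaggaca
Evx2 coding exon, extra in del(8-13)rXII, plus strand: tggtaGAGCCCCGGGTGGCGGAAGctgcag
Among the wild-type sites, 3 missing ones and 1 kept one had a minus-strand motif, and 2 missing ones and 1 kept one a plus-strand motif. A kept site between Evx2 and Hoxd13 and a missing one at the Hoxd10 promoter had no match past the threshold of 6.69 bits.

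The 3 kept sites lie on both sides of this stretch. At the Evx2 UTR, the −log10 q, the authors' measure of how far a peak stands above background, was 7.56 in del(8-13)rXII and 22.3 in wild type (wild-type interval chr2:74655315-74655721). At chr2:74663558-74663930, between Evx2 and Hoxd13, with its wild-type summit at −4.58 kb from the start of Hoxd13, it was 12.9 in del(8-13)rXII and 34.7 in wild type. In the introns and exons shared by Hoxd3 and Hoxd4, at chr2:74715703-74716372, it was 13.0 in del(8-13)rXII and 53.4 in wild type. These values depend on depth and are read within each list only: the 3 intervals stood at the 52.8, 76.6 and 76.9 percentiles of the del(8-13)rXII list and at 57.4, 69.8 and 82.7 of the wild-type list. The strongest summits of the 2 lists lay 81, 23 and 38 bp apart at these sites.

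The 6 missing sites include the strongest of the cluster. No del(8-13)rXII interval was called at chr2:74702212-74702605, between Hoxd9 and Hoxd8, where the wild-type −log10 q was 60.4. The same was so in Hoxd11 (chr2:74686323-74686684, wild type 56.8) and between Hoxd13 and Hoxd12 (chr2:74672984-74673330, wild type 54.1). Each of these 3 was in a wild-type decile of which 0.253% was missing in the genome, 11 sites that include these 3. A coding exon of Hoxd10 held a missing site of 34.4 in wild type (chr2:74694024-74694427), and the Hoxd10 promoter a missing site of 12.4, 155 bp from the gene's start (chr2:74691608-74691923). These 5 sites lie between Hoxd13 and Hoxd8, the outermost genes of the deletion by the allele's name; its breakpoints are not given in the sources used here.

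The sixth missing site lies outside the named genes. It is at chr2:74661629-74662138, with its summit at −6.31 kb from the start of Hoxd13, between a pair of kept sites, with a wild-type −log10 q of 11.9 and 2 summits. In its decile of the wild-type list 22.9% of sites were missing. In the list of del(8-13)d11lac limbs, a ChIP-seq library of another allele named for the same deletion, this site had a peak of 38.2, while the other 5 missing sites had none in that list either. The 2 wild-type forelimb lists, from distal and proximal tissue, had a peak at each of the 9 sites. RAD21, a cohesin subunit, had peaks in the del(8-13)rXII RAD21 list at 2 of the 9 sites, both kept ones (16.1 between Evx2 and Hoxd13 and 52.5 at Hoxd3 and Hoxd4), and in wild-type limbs at 7 of the 9. The other 5 missing sites lie within the deletion by name, where absent DNA can give no peak of CTCF or RAD21 in either allele. The del(8-13)rXII RAD21 list is the shorter, with 15927 intervals against 33707.

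The extra interval is in a coding exon of Evx2, at chr2:74655772-74656176. It had 2 summits, a −log10 q of 5.97 and a fold enrichment of 5.04 in del(8-13)rXII. Its motif is the only one on the plus strand on that side of Hoxd13, and at 8.12 bits it scored lower than that of the neighbouring kept site, at 22.4 bits. The interval overlapped a peak in the distal (7.09) and the proximal (78.8) wild-type forelimb list, and the proximal peak also covers the neighbouring kept site. It overlapped none in the other 3 alleles. At the neighbouring kept site, del(8-13)d11lac and del(1-13)d9lac had a peak and del(attP-Rel5)d9lac had none. The del(attP-Rel5)d9lac list had a peak at only 1 of the 9 wild-type sites here.

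**Figure D1:**
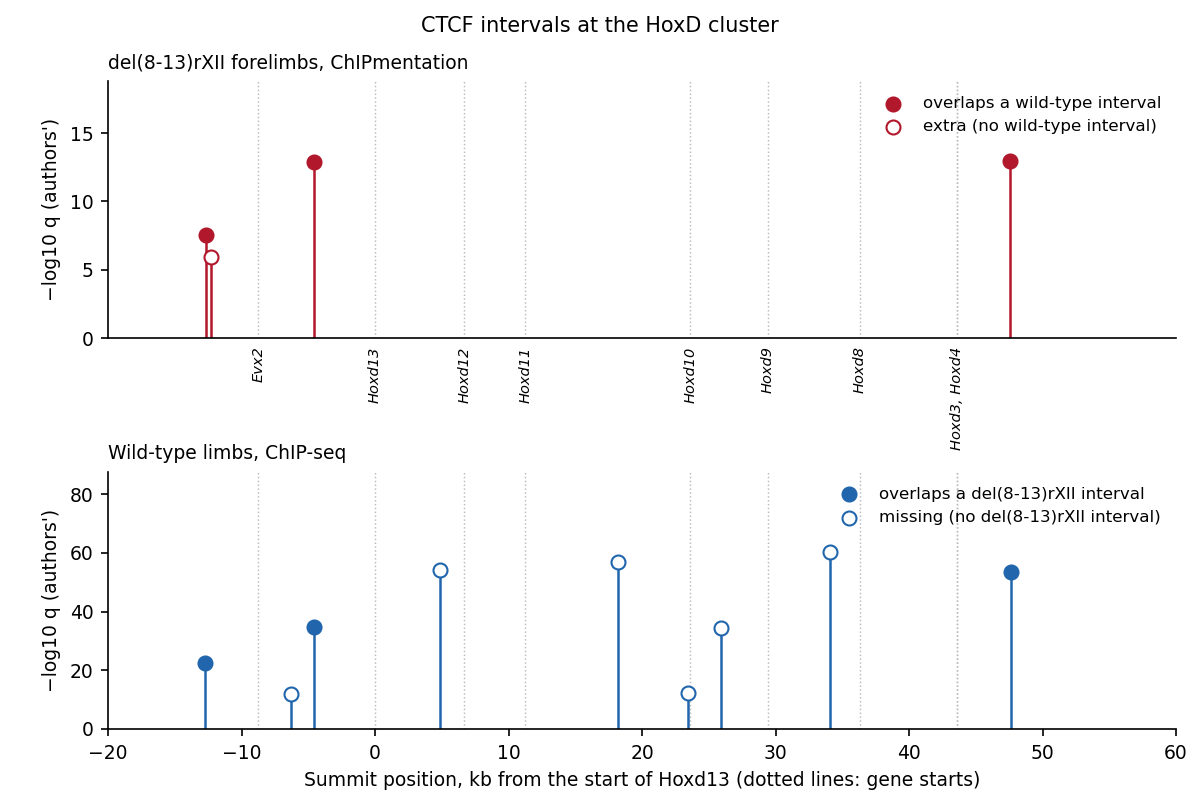
CTCF intervals between Evx2 and the Hoxd3 and Hoxd4 genes in del(8-13)rXII forelimbs (above) and wild-type limbs (below), by distance of the summit from the start of Hoxd13 (x, kb) and the authors' −log10 q (y, a scale of its own in each panel). Filled points overlap an interval of the other list and open points do not; the 5 open wild-type points from Hoxd13 to Hoxd8 have no counterpart above.

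Along chromosome 2 the HoxD gap stood out by the strength of its sites and not by its length. The 955 missing sites of the chromosome fell into 621 runs of neighbours, of which 68 held 3 or more sites. The 5 missing sites from Hoxd13 to Hoxd8 formed a run with a median wild-type −log10 q of 54.1, and 11 other runs were as long or longer. Among the other runs of 3 or more, the highest median was 12.8, in a run of 10 missing sites at a cluster of zinc-finger genes (chr2:175120408-176132351, with Zfp966, Zfp968 and Zfp969 nearest). A run of 7 lay at Sfmbt2, a gene imprinted in the placenta, with a median of 5.07, and a run of 5 at Fkbp7, Plekha3 and Ttn, the gene of the giant muscle protein titin, with a median of 9.71. Runs in the other chromosomes were longer still on Y, with 22 sites at Rbmy, Rbm31y and Ssty1 and a median of 2.88.

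Chromosome 2 as a whole resembled the rest of the genome. Of its del(8-13)rXII intervals 88.4% (2394 of 2708, Wilson 95% interval 87.1 to 89.6%) had a wild-type interval, against 31420 of 36116 in the genome (86.6 to 87.3%). Of its wild-type intervals 70.9% (2326 of 3281, 69.3 to 72.4%) had a del(8-13)rXII interval, against 70.3% of 43533 (69.9 to 70.7%). Intervals cover counting error only. Strength alone would give 2312 kept sites on chromosome 2, against 2326 found. It was rank 10 of 21 chromosomes for kept sites and rank 3 for shared intervals. Over windows of 10 Mb, the kept share ran from 53.8% at 40 to 50 Mb, a stretch of 52 sites, to 80.6% at the end of the chromosome. The window that holds HoxD had 144 of 204 sites kept, with 152 given by strength, and 25 extra intervals of 173.

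Chromosomes were also set against the share that strength alone would give. The kept share was highest on chromosome 19 (73.5%) and lowest on X (63.3%) and Y (34.1%). Strength gave 63.2% for X, where the median wild-type −log10 q was 12.1, and 48.2% for Y, with 82 wild-type sites. On chromosome 16 the share was 65.95% (63.5 to 68.3%), with 68.3% given by strength. Shared intervals made up 69.8% of the 43 del(8-13)rXII intervals on Y, where strength gives 91.5%. They made up 85.5% on chromosome 10 (87.4% given by strength), 85.9% on chromosome 16 (87.5%) and 89.4% on chromosome 11 (87.9%).

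**Figure D2:**
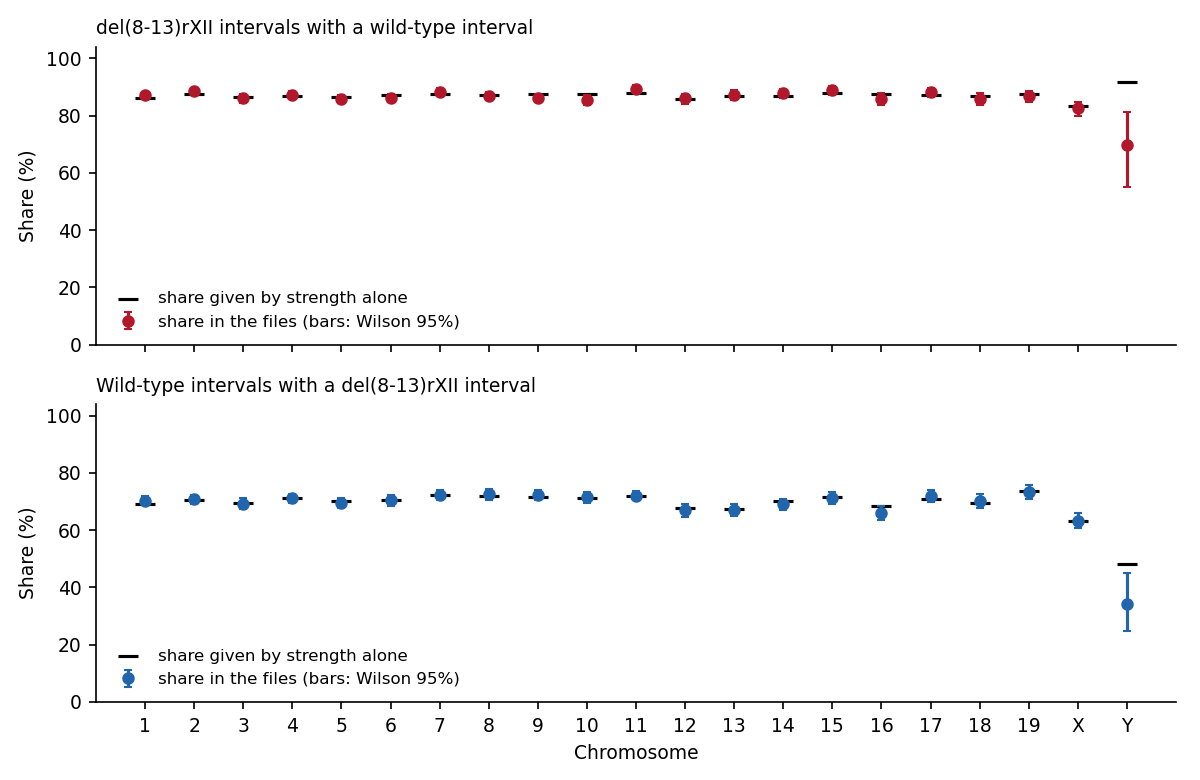
Share of intervals with an overlap in the other list by chromosome, for del(8-13)rXII intervals (above) and wild-type intervals (below), with Wilson 95% bars and, as short lines, the share given by strength alone. Chromosome 2 lies among the other autosomes in both panels, and Y lies lowest.

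Weak peaks made up most of the missing and extra sites. Missing sites had a median wild-type −log10 q of 5.13 (quartiles 3.38 and 8.13) and kept sites one of 28.9. The kept share was 11.4% in the weakest decile of the wild-type list, 77.1% in decile 5 and 99.7% in the strongest. Extra intervals had a median del(8-13)rXII −log10 q of 3.08 (quartiles 2.27 and 4.16), against 8.16 in shared ones, and made up 45.9% of the weakest decile and 0.692% of the strongest. Extra intervals were also narrow, with a median width of 117 bp against 334 bp for shared ones. Over the 30601 kept sites the −log10 q of the 2 lists had a Spearman rho of 0.756, and over the 2326 of chromosome 2 one of 0.755; both lists share the sites' sequence and mappability, so this is a description across sites.

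**Figure D3:**
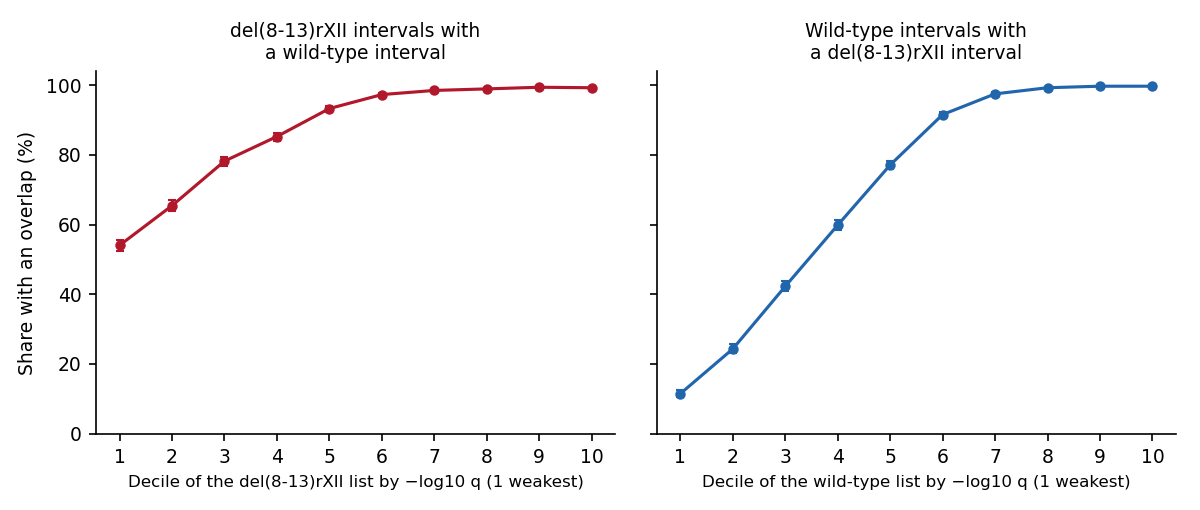
Share of del(8-13)rXII intervals with a wild-type interval (left) and of wild-type intervals with a del(8-13)rXII interval (right), by decile of the respective list in −log10 q, with Wilson 95% bars. On the right the share climbs to 91.6% in decile 6 and 99.7% in decile 10, and on the left it is 54.1% in the weakest decile.

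The del(8-13)rXII intervals carried several summits far more often than those of any ChIP-seq CTCF list. MACS2, the peak caller named in the submitters' processing notes, can list several summits within 1 called interval. In del(8-13)rXII, 24.6% of intervals had 2 or more summits (8888 of 36116, 24.2 to 25.1%), against 0.866% in wild type (377 of 43533). The 6 ChIP-seq CTCF lists, wild type included, ran from 0.712% to 1.67%, and the RAD21 list of the same allele, made by ChIP-seq, had 0.936%. On chromosome 2 the shares were 25.9% in del(8-13)rXII (701 of 2708) and 0.792% in wild type (26 of 3281). The counts with 1, 2, 3 and at least 4 summits were 27228, 7563, 1210 and 115 in del(8-13)rXII, and 43156, 358, 12 and 7 in wild type.

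Several summits were found mostly at strong, shared sites. In del(8-13)rXII the share was 0% in the weakest decile, 21.9% in decile 5, 47.1% in decile 9 and 41.8% in the strongest, and it was 28.1% in shared intervals and 1.02% in extra ones (48 of 4696). Of the kept sites, 8645 had several summits in del(8-13)rXII and 1 in wild type, and 128 the reverse. The gap between neighbouring summits was 163 bp in del(8-13)rXII (median of 10347, quartiles 134 and 207), against 315 bp in wild type (median of 409, quartiles 260 and 382). The narrowest intervals were 97 bp wide in del(8-13)rXII and 190 bp in wild type, where the ChIP-seq CTCF lists had minima of 185 to 224 bp.

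The del(8-13)rXII intervals with the most summits lay at sites with peaks in other lists. The interval with the most summits, 6, lay 4.22 kb from the start of Tmem125 (chr4:118547174-118548740), and the wild-type interval there had 4. Intervals with 5 summits lay at chr2:98666241-98667335 and chr2:98662228-98662980, 1199 and 1194 kb from Lrrc4c, the gene of a synaptic adhesion protein, and near Samd9l and Ttyh3. Each of these 5 intervals overlapped peaks in all 5 other CTCF lists and in both RAD21 lists. Only that near Ttyh3 had a motif match within 50 bp of its strongest summit. The pair on chromosome 2 had fold enrichments of 5.60 and 4.43, below the median of 6.03 in the del(8-13)rXII list. Which of these intervals are sites of CTCF binding was not tested. In wild type the most summits, 9, were in an interval 335 kb from Nid2, with no motif match. Its fold enrichment was 3.00, against a median of 8.59 in the wild-type list.

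**Figure D4:**
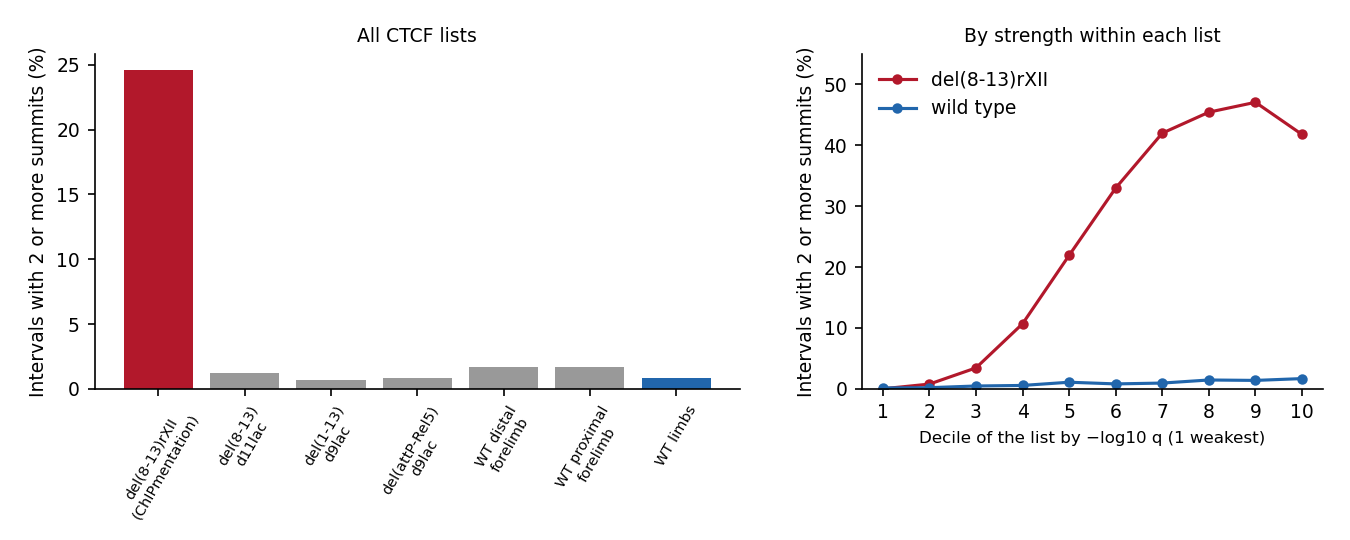
Share of intervals with 2 or more summits in each of the 7 CTCF lists (left; del(8-13)rXII first, wild-type limbs last) and by decile of strength in the del(8-13)rXII and wild-type limb lists (right). The del(8-13)rXII list is at 24.6% and the other 6 are at 1.67% or less.

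Summits of the del(8-13)rXII list also lay farther from the CTCF motif. The motif was placed with a list that is neither side of the comparison, as the best match within 100 bp of a wild-type distal forelimb summit, at 27411 sites in both lists. That list is wild-type ChIP-seq too, and the matrix was learned from the strongest wild-type limb summits. The placing can therefore favour the wild-type side, by an amount that was not tested. The strongest summit lay a median of 42 bp from the motif centre in del(8-13)rXII (quartiles 20 and 72) and 12 bp in wild type (quartiles 6 and 21). It was within 20 bp at 25.1% of sites in del(8-13)rXII and 73.1% in wild type, and within 100 bp at 87.4% in del(8-13)rXII and 99.4% in wild type. The same was seen on chromosome 2, with medians of 43 bp in del(8-13)rXII and 12 bp in wild type over 2075 sites. In del(8-13)rXII, intervals with 1 summit had a median of 39 bp and those with several a median of 51 bp. Where an interval had exactly 2 summits, the motif lay between them in 77.0% of del(8-13)rXII cases (5385 of 6995, 76.0 to 78.0%) and 36.2% of wild-type cases (100 of 276, 30.8 to 42.1%). The nearer and farther summit then lay a median of 40 and 141 bp from the motif in del(8-13)rXII, and 14 and 321 bp in wild type. Genotype, assay and tissue all differ between these 2 lists and cannot be told apart here.

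**Figure D5:**
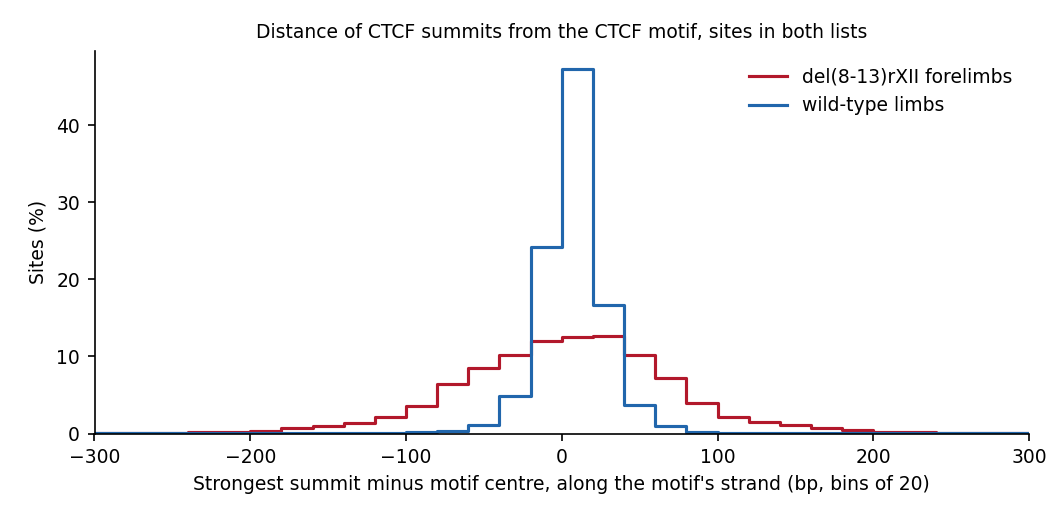
Distance of the strongest summit from the centre of the CTCF motif (x, bp along the motif's strand, bins of 20 bp) at 27411 sites of both lists (y, percent of sites). The del(8-13)rXII distances spread over about 100 bp on each side, with a median size of 42 bp, and the wild-type distances gather at the motif, with a median size of 12 bp. The motif was placed from another wild-type ChIP-seq list.

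Missing sites held a CTCF motif less often than kept sites. A match within 50 bp of the wild-type summit, at a threshold that 5% of control windows pass, was found at 55.7% of missing sites (7204 of 12932, 54.8 to 56.6%) and 89.1% of kept sites. Kept sites weighted to the strengths of the missing ones had 69.2%. The matrix was learned from 2000 wild-type summits of the strongest decile, of which 1995 are at kept sites, and the 89.1% includes them. In decile 9, which held none of them, 5 of 11 missing sites (45.5%) and 95.7% of kept ones had a motif. Those 5 include the HoxD sites between Hoxd13 and Hoxd12, in Hoxd11 and between Hoxd9 and Hoxd8, each with a motif. Among the sites of the strongest decile that were not used to learn the matrix, 3 of 6 missing ones and 96.3% of 2348 kept ones had it. Of extra intervals 23.8% had a motif near the del(8-13)rXII summit, of shared ones 48.4%, and of shared ones weighted to the same strengths 39.9%. With the window widened to 100 bp and the threshold again set to 5% of control windows, a choice made after the summit distances were known, a match was found at 61.1% of missing and 89.6% of kept sites, and at 34.99% of extra and 76.2% of shared ones.

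Promoter sites were missing more often than their strength would give. A promoter here is a summit within 1 kb of a protein-coding transcription start. Of the 4447 wild-type promoter sites 33.1% were missing, where strength gives 27.4%, and 11.4% of missing sites were at a promoter (10.9 to 12.0%), against 9.72% of kept sites and 7.35% of kept sites at the same strengths. The weakest decile had 8.30% of missing and 6.83% of kept sites at promoters, and decile 6 had 18.6% of missing and 8.78% of kept ones. The strongest decile went the other way, with 0 of its 11 missing sites and 17.2% of its kept ones at a promoter. Extra intervals went the other way, with 7.60% at promoters (6.88 to 8.40%) against 9.73% of shared ones and 10.1% of shared ones at the same strengths. Base composition moved with this: in deciles 4 to 7 the kept share was 81.9% to 83.9% in the lower 4 quintiles of wild-type sites by GC content around the summit and 73.0% in the GC-richest quintile. Its part in the promoter result was not tested.

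Introns held 42.6% of missing, 42.2% of kept, 45.7% of extra and 42.3% of shared sites, and intergenic positions 40.2%, 41.0%, 42.4% and 41.0%. UTRs held 1.28% of missing (1.10 to 1.48%) and 2.13% of kept sites (1.97 to 2.30%), and 1.19% of extra and 2.08% of shared ones. Coding exons held 1.92% of missing and 1.82% of kept sites, and 0.958% of extra (0.717 to 1.28%) and 1.79% of shared ones (1.65 to 1.94%). Sites over 100 kb from any named protein-coding start were more common among missing (24.7%) than kept sites (15.9%) and among extra (25.0%) than shared intervals (16.0%), and missing and extra sites were also the weaker ones. On chromosome 2, 12.46% of missing (119 of 955), 10.1% of kept and 7.32% of extra sites (23 of 314) were at promoters.

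Most missing and extra sites had a CTCF peak in some other limb list. Of the missing sites 80.9% (80.2 to 81.5%) were in at least 1 of the 5 other CTCF lists and 33.3% in all 5, against 99.96% and 93.6% of kept sites. Of the extra intervals 70.0% (68.6 to 71.3%) were in at least 1 and 15.4% in all 5, against 99.95% and 92.8% of shared ones. A wild-type forelimb peak, distal or proximal, lay at 64.4% of the extra intervals. The distal, proximal and del(8-13)d11lac lists are long, with 69495, 73682 and 61200 intervals. The del(1-13)d9lac and del(attP-Rel5)d9lac lists hold 41588 and 42957. These shorter lists had peaks at 43.3% and 49.2% of missing sites, and at 25.1% and 30.0% of extra ones. On chromosome 2, 82.0% of missing and 73.2% of extra sites were in at least 1 of these lists. In all 3 other alleles and in neither wild-type forelimb list were 33 missing sites (0.255%) and 45 kept ones (0.147%). The same held for 15 extra intervals (0.319%) and 49 shared ones (0.156%).

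RAD21 in the same allele gave a second readout at these sites. The del(8-13)rXII RAD21 list, from ChIP-seq, had a peak at 4.86% of missing sites (628 of 12932) and 45.7% of kept sites. Among sites with a wild-type RAD21 peak, the del(8-13)rXII RAD21 peak was present at 26.1% of missing (601 of 2299) and 69.2% of kept ones. Extra intervals had one at 5.71% and shared intervals at 45.1%. These RAD21 shares were not weighted to strength, and missing and extra sites were the weaker ones. The del(8-13)rXII RAD21 list held 15927 intervals and the wild-type RAD21 list 33707.

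Strong missing sites were few and mostly had peaks in every other list. Of the 8337 wild-type sites whose −log10 q was 50 or more, 22 (0.264%) were missing; 3 of these were the HoxD sites above, 19 were in all 5 other CTCF lists and 9 had a del(8-13)rXII RAD21 peak. On chromosome 2, 4 of 638 were missing: the 3 at HoxD and a site 19.5 kb from Ly75, the gene of an endocytic receptor of dendritic cells (chr2:60402624-60402976, wild type 77.3), which had a del(8-13)rXII RAD21 peak of 4.95.

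The strongest missing site of the genome lay 369 kb from Arid1b, a subunit of the BAF chromatin remodeller (chr17:4626053-4626715, wild type 214), and the del(8-13)rXII RAD21 list had a peak of 16.9 there. Next came sites near Prh1, a salivary protein gene (wild type 101.2, del(8-13)rXII RAD21 2.72), and 16.1 kb from the start of Mydgf, a secreted growth factor gene (91.8, del(8-13)rXII RAD21 11.3). They were followed by a site near Sulf1, a heparan sulfate sulfatase gene (91.1, no del(8-13)rXII RAD21 peak). A site in a UTR of Mid1 on X had 90.4 in wild type, and 3 sites near the end of Y had 89.7, 83.1 and 76.3. The Ly75 site and 1 near the olfactory receptor gene Olfr855 (76.6, del(8-13)rXII RAD21 6.86) complete the 10 strongest. All 10 were in all 5 other CTCF lists, and 3 of them, at Mid1 and at 2 sites on Y, had a motif match.

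On chromosome 2 outside HoxD, the Ly75 site was followed by sites near Plxdc2 (wild type 36.0), Cd82, a tetraspanin gene (35.5), Slc38a11, an amino acid transporter gene (28.6), and Rbm43 (28.3, at its promoter). Sites near Bhlhe23, Kcnh7, Fam227b, Sema6d and Zfp217 had wild-type values of 25.5, 25.5, 25.1, 23.8 and 22.8. All 10 had peaks in all 5 other CTCF lists, and del(8-13)rXII RAD21 peaks lay at 4 of them: Ly75, Slc38a11 (8.36), Rbm43 (4.75) and Kcnh7 (9.78). In contrast to the strongest sites of the genome, 7 of these 10 had a motif; those at Rbm43 and Sema6d are shown.
Rbm43 promoter, missing, plus strand, chr2:51934709-51935037: gtgacGGCCACTTCGGGGCGCGCGaccgcg
Sema6d intron, missing, plus strand, chr2:124605370-124605664: tttttAGCCAGTAGGTGGCTCTAGtggctt

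Among missing promoter sites the strongest lay near Ear10 (wild type 66.3), at Fbxo47 (50.6), at Sgk1, a stress-induced kinase gene (38.9), at Dll3, a Notch ligand gene of somite segmentation (38.8), and near Palm3 (37.7). The sites near Ear10 and Palm3 are at the starts of predicted genes, 1.63 and 10.0 kb from the gene named. All 5 had peaks in all 5 other CTCF lists, and del(8-13)rXII RAD21 peaks were called at Sgk1 (12.4), at Ear10 (3.44) and at Dll3 (2.08).

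The strongest extra intervals had no motif and few peaks in the other CTCF lists. The first lay 940 kb from Nxph1, a neurexophilin gene (chr6:9889905-9890191, del(8-13)rXII −log10 q 49.0), and was in none of the 5 other CTCF lists. Next were a promoter interval with 2 summits at Syt7, a synaptotagmin gene (35.3, in 3 other lists), and intervals near A1cf (33.8), Hs3st3a1 (33.5) and Col4a6, a basement membrane collagen gene (30.4). Those near Tcerg1l, Map3k7, Wwox, Tbc1d5 and Frmd4a had 27.6, 26.7, 26.3, 25.9 and 23.8. None of the 10 had a motif within 50 bp of the summit and none was in all 5 other lists. Of the 10, 9 overlapped a wild-type RAD21 peak, with −log10 q of 1.81 at A1cf to 12.3 at Col4a6, and 6 a del(8-13)rXII RAD21 peak. Over all extra intervals these shares were 15.4% and 5.71%, and over shared intervals 65.2% and 45.1%.

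On chromosome 2 the strongest extra interval was that in an intron of Frmd4a (chr2:4516019-4516191). It was followed by intervals near Olfm1, a secreted olfactomedin gene (20.95), and at the promoter of Plcb4, a phospholipase gene (14.7). Next were intervals 5.70 kb from a start of Lrp1b (14.7) and 64.4 kb from Galnt3 (12.3). Myo3a and Olfm1 each had a pair of neighbouring extra intervals, of 10.3 and 9.50 and of 20.95 and 9.73. The interval in an intron near Pax1, a gene of the axial skeleton and shoulder girdle, had 9.92 and was in all 5 other CTCF lists, and that near Them7 had 9.08. Other promoter extras were at Rufy2 (14.2), Il1rapl2 (13.7) and Gclm (13.7), a glutathione synthesis gene.

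Genes of limb development had missing sites near them at varying rates. Of 21829 protein-coding genes 20.3% had a missing site within 10 kb of a start and 7% an extra one, and 53.7% had a wild-type site. Of the 11716 genes with a wild-type site, 37.8% had a missing one. Of the 18 genes of the HoxD cluster and its neighbours 11 had a missing site and 1 an extra one. For 8 of the 11 it was one or more of the 6 sites above, which neighbouring genes share, and for Atf2, Lnpk and Hnrnpa3 they were other, weaker sites (strongest 6.23, 2.07 and 3.87 in wild type). Of 31 genes of the HoxA, HoxB and HoxC clusters 4 had a missing site and 24 a kept one. The missing sites were weak, 9.88 in wild type near Hoxa4 and Hoxa5 and 8.21 near Hoxc9 and Hoxc10, while the strongest kept site near Hoxa5 had 16.0 in del(8-13)rXII and 110 in wild type.

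Of the 8 genes of forelimb and hindlimb identity all had a wild-type site within 10 kb, 6 had a missing site and none an extra one. They include Pitx1, the hindlimb selector (missing site 15.03 in wild type), Tbx5, needed to start the forelimb bud (7.81, with no kept site within 10 kb), Tbx15 (13.5) and Hand2, which sets the posterior side (4.86). Of 31 distal patterning genes 12 had a missing site and 3 an extra one, with Tbx3 (14.7), Tbx2 (11.9), Tfap2a (8.46) and Epha4 (6.53) as the 4 strongest. Of 14 proximal genes 4 had a missing site, among them Prrx1 (16.5) and Irx5 (8.996). The missing sites of these lists were weak to middling, and Tbx2 also had a kept site of 16.3 in del(8-13)rXII and 87.3 in wild type.

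In the other limb tissues, 5 of 18 chondrogenesis genes had a missing site, the strongest at Nog, a BMP antagonist (22.1), which also kept a site of 32.4 in del(8-13)rXII and 105.1 in wild type. Missing sites lay near 6 of 14 muscle genes, among them Myog (9.35) and Myod1 (8.98), 4 of 15 endothelium and blood genes, 4 of 8 nerve and Schwann cell genes, with Sox10 at 12.49, and 2 of 9 surface ectoderm genes. Of 19 imprinted genes 8 had a missing and 3 an extra site, with Gnas at 11.9, and of 15 protocadherin genes, whose promoter choice uses CTCF, 6 had a missing and 3 an extra site. Of 15 genes of CTCF and cohesin itself, Pds5a had a missing site (6.27) and Ctcf an extra one (6.55 in del(8-13)rXII), and of 16 housekeeping genes 6 had a missing site. A gene list is described here by its count beside the 20.3% and 7% of all genes and was not tested. Every list but that of CTCF and cohesin had a wild-type site near a larger share of its genes than the 53.7% of all genes. Among genes with a wild-type site, 37.8% of all genes had a missing one. The counts were 12 of 25 distal patterning, 8 of 16 imprinted, 6 of 12 housekeeping, 5 of 15 chondrogenesis and 4 of 25 HoxA, HoxB and HoxC genes. They were 11 of 12 for HoxD and its neighbours, 6 of 8 for limb identity and 4 of 9 for proximal patterning. Muscle and protocadherin genes each had 6 of 10, and endothelium and blood genes 4 of 10. Nerve and Schwann cell genes had 4 of 8, surface ectoderm genes 2 of 6, and CTCF and cohesin genes 1 of 7.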

How the data were processed

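Peak lists of CTCF in del(8-13)rXII forelimbs and wild-type limbs were compared, with 5 other CTCF lists and both whole-limb RAD21 lists as further readouts. Per the submitters' processing notes, cutadapt, Bowtie2 and MACS2 were used with build mm10; versions are not given in the sources used here. The deposited score is 10 times the −log10 q as a whole number. The fold enrichment is a ratio computed by the authors. Each summit also has the −log10 of its p and q, deposited by the authors, with the lowest value at a q of 0.05. All depend on read depth, which is unknown.

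Rows of 1 interval were merged with pandas 2.3.3, keeping the strongest summit. Of the deposited rows (46633 in del(8-13)rXII, 44094 in wild type), 46463 and 43942 lay on chromosomes 1 to 19, X and Y. Shares have Wilson 95% intervals. Strength alone means the share kept in each decile of −log10 q. Annotation is GENCODE release M21, and sequence is RefSeq's GRCm38.p6, read with pysam 0.24.0. Introns are those of any gene, and the gene named beside a site is the one with the nearest protein-coding start. The 19-base motif matrix was learned from the 2000 strongest wild-type summits (seed AGGGGGCG, 1913 windows with a match), with control windows 2 kb away. The code was tested on simulated lists.

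Named sites are all intervals between Lnpk and Mtx2, the 10 strongest missing and extra sites of the genome and of chromosome 2, the 5 strongest at promoters and with most summits, and up to 4 members per gene list. The sites and the 14 gene lists were chosen with earlier results of these data known. The motif placed by the distal forelimb list, the GC quintiles and the 10 Mb windows were chosen after the data were seen. The 2 H3K27ac samples and 2 distal forelimb cohesin lists were not used here.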

Additional observations from a re-analysis of the deposited data

How the results depend on the processing

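No paired analysis was possible because each group has 1 library, so its replicate number pairs nothing. Of 68 alternative values 18 stayed within the interval of the value given (for counts, within 1.5 times) and 50 moved. The 6 missing HoxD sites became 7 at a −log10 q of at least 10 and stayed 6 under the other alternatives run. At that cutoff, which is not equal between lists of different depth, 97.7% of del(8-13)rXII intervals were shared and 43.8% of wild-type ones kept (chromosome 2: 97.0% and 43.5%), several summits fell to 15.6% in del(8-13)rXII and 0.725% in wild type, the median −log10 q of missing sites was 20.6, promoters held 10.8% of missing and 8.97% of extra sites, and 99.9% of missing sites were in another list. With lists of equal length the shares were 83.8% shared and 81.5% kept (chromosome 2: 84.8% and 81.5%), the median 7.99, missing promoters 13.3%, and 97.5% of missing and 75.8% of extra sites were in another list. With at least 50% covered they were 84.0% and 60.9% (85.04% and 62.5%), the median 6.05 and 84.7% of missing sites in another list. With summits within 200 bp they were 85.4% and 69.6% (chromosome 2 shared: 86.4%), the median 5.28, extra promoters 8.45% and 56.0% of extra sites in another list. Counting every row gave 89.8% shared (chromosome 2: 91.0%). Against all 3 wild-type lists 95.4% were shared and 77.0% of the sites common to them kept (96.2% and 77.7%). Widening the other list by 200 bp, chosen after seeing the data, gave 89.5% and 70.8% (chromosome 2 shared: 90.4%). Among intervals found in both lists several summits stood at 28.1% in del(8-13)rXII and 1.16% in wild type. Within 5 kb of a start lay 22.4% of missing and 18.7% of extra sites. A motif within 100 bp was at 69.2% of missing and 41.1% of extra sites at the same score threshold, which 10.5% of control windows of that size pass, at 61.1% and 34.99% with the threshold reset to 5% of them, chosen after seeing the data, and at the 1% threshold at 40.1% and 16.7%. Of 230 listed genes 89 had a missing or extra site within 10 kb and 170 within 50 kb. Of all protein-coding genes 20.3% had a missing and 7% an extra site within 10 kb, and 54.3% and 24.0% within 50 kb. The cause of these moves was not tested. Weak peaks are limited by the unknown depth.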

Other observations

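The ends of X and Y held a share of the strongest missing sites that was seen after the values were known. Of the 11 strongest missing sites of the genome, 2 lay in the last 2 Mb of X and 3 in the last 2 Mb of Y, the ends that hold the pseudoautosomal region shared by both chromosomes. In those 2 Mb, 9 of 24 wild-type sites were missing on X and 6 of 30 on Y, against 36.7% of 1225 sites on the rest of X and 92.3% of 52 on the rest of Y. Extra intervals made up 21 of 35 del(8-13)rXII intervals at the end of X and 10 of 36 at the end of Y, against 15.9% of 947 on the rest of X and 3 of 7 on the rest of Y. The Mid1 site on X (chrX:169990118-169990468) and a site on Y (chrY:90764405-90764734) had the same motif and flanks, on the minus strand of each, while another Y site (chrY:90792474-90792793) had a different match.
Mid1 UTR on X and the first site on Y: tctgtCACCACCGGGTGGCGACAGagagca
The second site on Y: tccgtGGCCACAAGGTGGCGCCCCtgagca
All 3 had CTCF peaks in all 5 other CTCF lists and no RAD21 peak in either whole-limb RAD21 list. Whether reads were placed alike on X and Y in both libraries was not tested.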
